A study of Mus musculus with 7 samples.

Results

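The baseline transcriptome of Paneth cells was described from the 3 arrays of mice fed ad libitum, out of 7 arrays in the series. The other 4 arrays, from mice given 60% of the ad libitum calories, were not compared here. Each ad libitum array measured total RNA of Paneth cells sorted by flow cytometry from mice aged 4 months that had been kept on the diet for 4 to 7 weeks. The labels give no strain, sex or genotype, and they call the arrays biological replicates without saying whether each was 1 animal or a pool. The arrays are named array 1, array 2 and array 3 after the replicate number in the labels. Genes were taken from transcript clusters (the array's gene-level probe sets) annotated to 1 gene symbol, and where a gene had several clusters the one with the highest mean was used, which gave 19938 genes. Values are the deposited log2 levels, so 1 unit is a 2-fold difference, and means are given ± SD over the arrays (n = 3). With 1 group there was no contrast to test, and every value below is a description.

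Paneth cells sit at the base of the crypts of the small intestine, between the stem cells. They pack lysozyme, alpha-defensins, phospholipase and lectins into large apical granules, and release them into the crypt lumen against microbes. The same cells supply Wnt, Notch and EGF family ligands to the neighbouring stem cells. They arise from secretory progenitors shared with goblet, enteroendocrine and tuft cells, under transcription factors such as Atoh1, and they depend on a large endoplasmic reticulum that is maintained by Xbp1.

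The promoters of 6 secreted-product genes, whose levels are given below, are shown first. The ranks of these genes by mean level ran from 2 for Lyz1 to 1172 for Reg3b. The promoters are the 120 bases before the annotated start, read 5′ to 3′ on the gene's strand from RefSeq, build GRCm38.p6. Capitals mark the motif TATAA where it began more than 20 and at most 45 bases before the start.
Lyz1, chr10:117292869-117292988, minus strand: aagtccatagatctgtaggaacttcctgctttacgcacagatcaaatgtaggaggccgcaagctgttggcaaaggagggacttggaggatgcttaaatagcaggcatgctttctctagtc
Lyz2, chr10:117282273-117282392, minus strand: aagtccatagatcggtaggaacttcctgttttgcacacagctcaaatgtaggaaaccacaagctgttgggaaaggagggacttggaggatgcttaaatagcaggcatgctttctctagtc
Reg3b, chr6:78370765-78370884, plus strand: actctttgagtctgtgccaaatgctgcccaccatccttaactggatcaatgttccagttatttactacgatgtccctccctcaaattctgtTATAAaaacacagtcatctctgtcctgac
Reg3g, chr6:78468875-78468994, minus strand: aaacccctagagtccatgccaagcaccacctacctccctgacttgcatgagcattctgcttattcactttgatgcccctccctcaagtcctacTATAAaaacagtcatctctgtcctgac
Mmp7, chr9:7691970-7692089, plus strand: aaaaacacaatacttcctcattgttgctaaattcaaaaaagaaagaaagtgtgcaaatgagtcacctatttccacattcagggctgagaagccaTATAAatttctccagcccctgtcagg
Muc2, chr7:141690220-141690339, plus strand: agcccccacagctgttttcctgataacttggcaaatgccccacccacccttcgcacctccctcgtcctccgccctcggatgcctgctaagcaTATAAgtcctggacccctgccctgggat
For Mmp7, the upstream one of the 2 annotated starts is shown. The Lyz1 and Lyz2 stretches, from neighbouring lysozyme genes, were identical at 111 of 120 positions, counted base by base without gaps, and at 152 of 250 over the longer stretch. Neither held TATAA in the window searched. The Reg3b and Reg3g stretches, from neighbouring genes for antimicrobial C-type lectins, were identical at 48 of 120 positions by the same count, beside 28 of 120 for Lyz1 and Reg3b, which are not related. A count without gaps misses likeness that is offset by a few bases. TATAA began 29 and 27 bases before their starts. It began 26 bases before the start of Mmp7 and 28 bases before that of Muc2. Of the 19 Paneth granule genes measured, 16 had a promoter in the table, and 5 of these 16 (31.2%) held TATAA in that window, beside 778 of 15614 measured genes with a promoter (5.0%). The other strand's form, TTATA, was found there in 1 of the 16 (6.2%) and in 327 of the 15614 (2.1%). The share with TATAA was 2 of 7 for goblet genes (28.6%), 4 of 27 for enterocyte genes (14.8%) and 0 of 16 for genes of the intestinal epithelium in general. Among the genes with the highest means it was 3 of 21 for the top 30 (14.3%) and 9 of 76 for the top 100 (11.8%). A match is a match of letters and not a measured site.

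Products of the secretory granule stood at the top of the ranking. Of the 30 genes with the highest mean, 7 were on the list of Paneth granule products, 4 were on the goblet list and 3 encoded cytosolic ribosomal proteins, a list drawn up after the values were seen. The level of a cluster depends on its probes as well as on the RNA, so these are ranks of array signal. Signals this close to the top of the scale, which reached 14.66 on these arrays, may also be compressed.

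Lysozyme 1 (Lyz1), the bacterial cell-wall hydrolase that defines Paneth cells, was at 14.30, 14.31 and 14.33 on arrays 1, 2 and 3 and ranked 2 of 19938. Colipase (Clps), the cofactor of pancreatic-type lipases, was at 14.35, 14.27 and 14.20 and ranked 3. The alpha-defensin gene Defa24 was at 14.01, 14.05 and 14.08 and ranked 10. Each of these genes kept within 0.15 units over the arrays, with array 1 highest for Clps and array 3 highest for Lyz1 and Defa24.

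Intelectin 1 (Itln1), a lectin that binds microbial glycans, was at 14.08, 14.05 and 14.00 and ranked 11. Matrilysin (Mmp7), the metalloproteinase that activates mouse pro-defensins, was at 14.02, 13.94 and 13.91 and ranked 16. The antimicrobial ribonuclease gene Ang4 was at 13.52, 13.60 and 13.54 and ranked 31, just outside the 30 highest. Its mean of 13.56 differed from that of the gene ranked 30, the calcium-activated chloride channel regulator Clca3b (13.56 ± 0.27), by less than the spread over arrays. Lyz1, Clps, Defa24, Itln1, Mmp7 and Ang4 were the 6 Paneth markers given as markers of the labelled cell type, and each was among the 31 highest genes. They were chosen with these data known, and goblet products ranked as high, so these ranks describe the RNA and do not test the label.

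The gene ranked first was Baiap2l1, an adaptor of the actin cytoskeleton, at 14.32 ± 0.02. Its position rests on 1 of 3 clusters, since the other 2 were at 11.70 and 11.05. The other granule genes among the 30 highest were Pnliprp2, a pancreatic lipase-related protein (14.05 ± 0.08), and Reg4, a regenerating-family lectin (14.00 ± 0.07). Goblet products were interleaved with them: the trypsin-inhibitor-like gene Spink4 ranked 5 (14.13 ± 0.05), the gel-forming mucin Muc2 ranked 7 (14.10 ± 0.02), the trefoil factor Tff3 ranked 21 (13.67 ± 0.10) and Clca1 ranked 23 (13.65 ± 0.20). Secreted products outside these lists were the defensin gene Defa39 (14.02 ± 0.05), the uroguanylin gene Guca2b (14.01 ± 0.08), the ribonuclease gene Rnase1 (13.76 ± 0.21) and the chemokine gene Ccl6 (13.60 ± 0.11).

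Most of the remaining genes of the 30 are used by cells in general. They included the translation elongation factors Eef1a1 (14.12 ± 0.01) and Eef2 (13.62 ± 0.04), beta-actin Actb (13.96 ± 0.04), the poly(A)-binding protein Pabpc1 (13.60 ± 0.03) and the ribosomal protein genes Rpl10 (13.70 ± 0.01), Rps6 (13.66 ± 0.06) and Rplp0 (13.62 ± 0.07). The others were the small nuclear RNA Rn7sk, thioredoxin Txn1, the serine incorporator Serinc3, the ATP synthase subunit Atp5d, keratin 8 (Krt8) and Lypd8, a protein of the enterocyte list that binds flagellated bacteria. Their means lay between 13.58 and 14.22.

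Granule genes took up a smaller share further down the ranking. Among the 100 highest genes, 11 were granule genes, 7 goblet genes and 14 ribosomal protein genes. Among the 500 highest, the numbers were 13, 8 and 37. The spread was small at the top, with a median SD of 0.06 for the 30 highest genes, 0.09 for the 100 highest and 0.14 for the 500 highest.

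**Figure D1:**
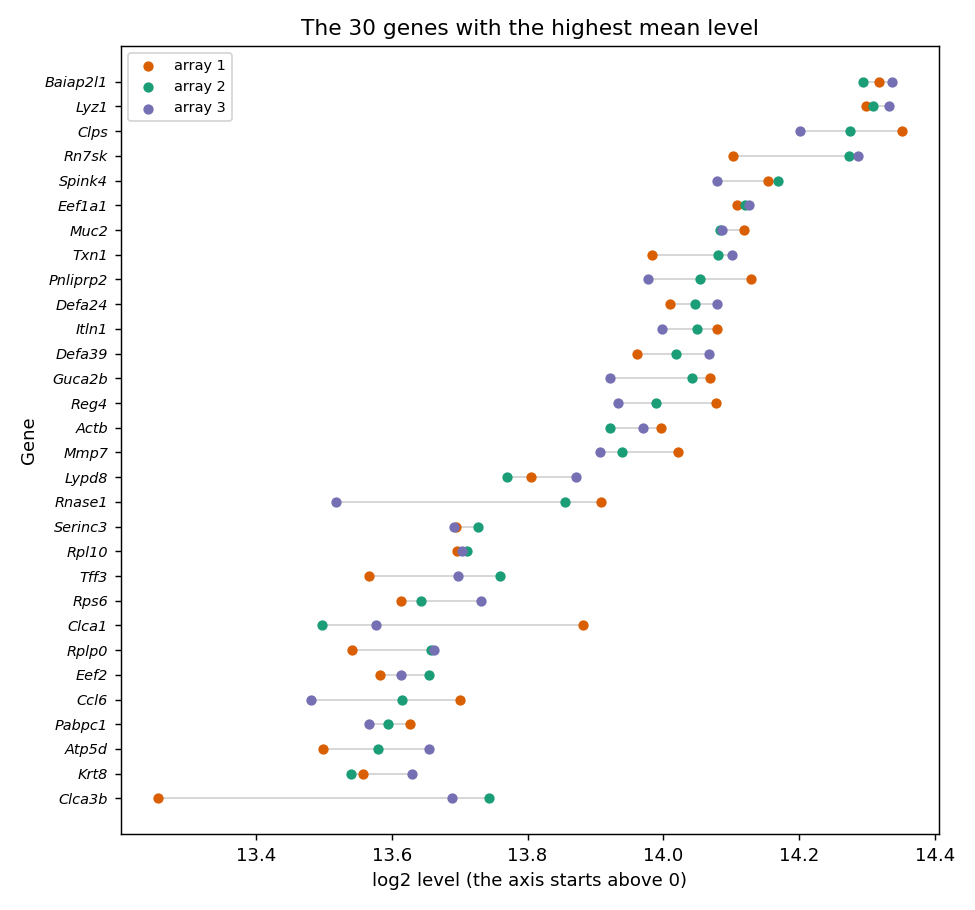
The log2 level of the 30 genes with the highest mean (vertical axis, in order of mean) on each of the 3 ad libitum arrays (horizontal axis, which starts above 0). Coloured points are single arrays and grey lines join the lowest to the highest. Lyz1 lies between 14.30 and 14.33, while Clca3b, the gene ranked 30, lies between 13.26 and 13.74.

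To set levels against a floor, a reference level was taken as the 90th percentile of the means of 36 genes of other organs, such as the lens crystallins and pituitary hormones, because no detection calls were used. This level was 7.73, and 9628 genes (48.3%) lay above it on all 3 arrays. The median of all genes was 7.81. A gene under the reference level was not separated here from genes of other organs, which does not show that it was silent. Among those 36 genes, Avp (8.33) and Oxt (8.18), the vasopressin and oxytocin genes, were above the level on all arrays, so a value near it is weak evidence of expression.

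Paneth granule products were the list with the highest median. Of 19 measured members, 17 were above the reference level, and the median of the 19 was 13.24. Below the markers came the secreted phospholipase Pla2g2a (13.44 ± 0.14), the hyaluronan-binding protease Habp2 (13.24 ± 0.20) and the bactericidal lectin Reg3g (13.01 ± 0.31). Lyz2, the lysozyme gene classically used for macrophages, was at 12.80, 12.74 and 12.83. Its promoter matched that of Lyz1 at 111 of the 120 positions shown above and at 152 of 250 over the longer stretch. Whether this bears on its level was not tested. The 16 other measured myeloid markers were not above the reference level on all arrays, and the 2 lysozyme genes are close copies of each other, so the level of either is uncertain.

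Lower in the list, the pentraxin gene Mptx1 was at 12.74, 11.69 and 11.62, with array 1 apart from the others, and Reg3b was at 10.63, 10.82 and 12.37, with array 3 apart. Reg3g was also highest on array 3 (12.84, 12.83 and 13.37), as was Reg3a (6.50, 6.89 and 8.09), a further lectin of the family whose mean of 7.16 was under the reference level. Reg3a, Ang6 and Ang5 were the 3 lowest members. Ang6, a relative of Ang4, was at 9.71, 8.94 and 8.47, and Ang5 was at 6.39, 6.08 and 6.25 and lay under the reference level on each array. The named members of the angiogenin family thus ranged from near the top of the scale to the level of the other-organ genes.

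The alpha-defensins could be read only in part. Of 8 clusters that name a Defa gene, 2 had 1 symbol (Defa24 and Defa39). The other 6 carried 4 to 9 symbols each and had means between 13.41 and 13.99, with SDs of 0.02 to 0.05. Copies of these genes are nearly identical in sequence, so the level of any 1 of them is uncertain, Defa24 and Defa39 included.

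**Figure D2:**
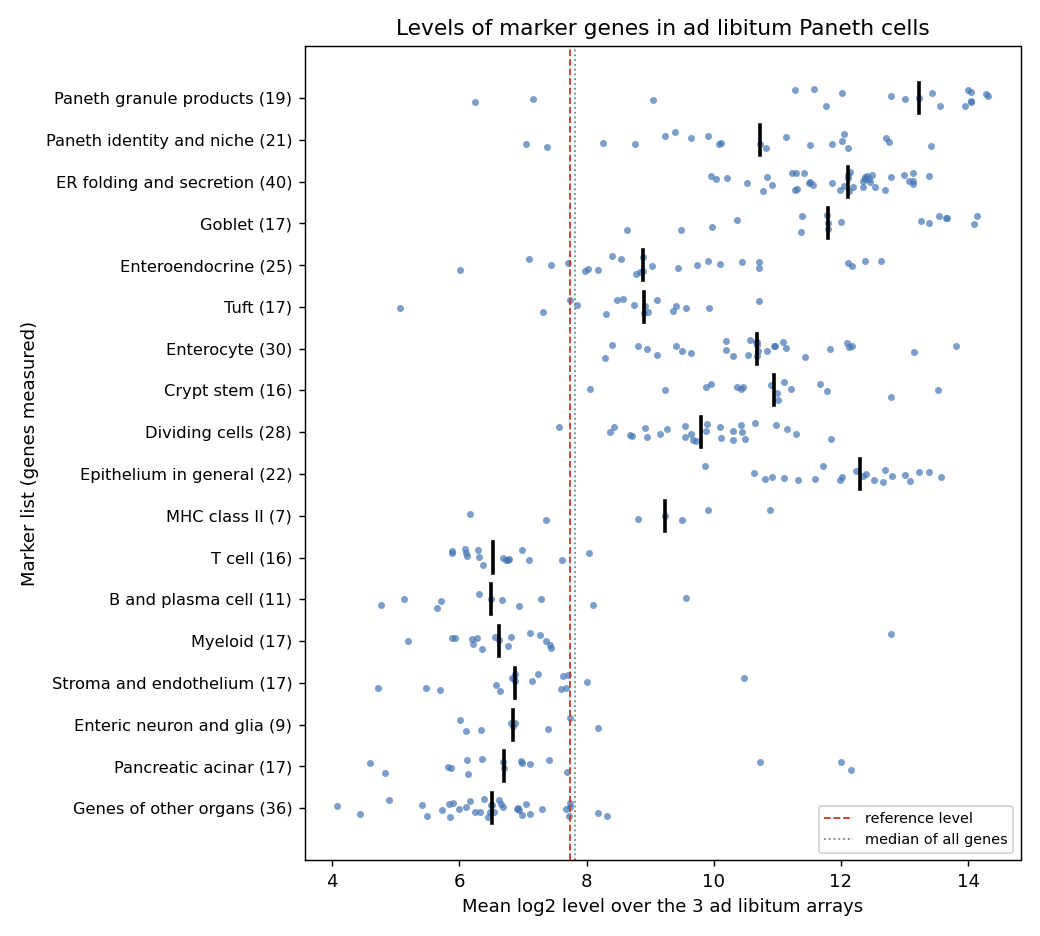
Mean log2 level over the 3 ad libitum arrays (horizontal axis) of the measured members of 18 marker lists (vertical axis, with the number measured). Each point is a gene, black bars are list medians, the dashed line is the reference level of 7.73 and the dotted line the median of all genes, 7.81. Granule products have a median of 13.24, and the lists of T, B, myeloid, stromal, neural and acinar cells have medians between 6.49 and 6.88.

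Genes of Paneth cell identity, positioning and niche signalling had a lower median than the granule products. Of 21 measured members, 18 were above the reference level, and the median was 10.72. The surface protein Cd24a, used to sort Paneth cells, was the highest at 13.41 ± 0.04, followed by Xbp1, the transcription factor of the unfolded protein response (12.75 ± 0.24). The receptor tyrosine kinase Kit was at 12.05 ± 0.23, and the ephrin receptor Ephb3, which keeps Paneth cells at the crypt base, was at 11.13 ± 0.31. The effector of Wnt signalling Tcf7l2 (10.72 ± 0.06) and the FGF receptor Fgfr3 (10.12 ± 0.12) stood near or below the list's median.

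The ligands for stem cells covered a wide range. Wnt3, the Wnt ligand attributed to Paneth cells, was at 11.86, 11.51 and 11.20. The Notch ligand genes Dll4 (10.09 ± 0.18) and Dll1 (9.65 ± 0.17) and the EGF-family ligand gene Tgfa (9.92 ± 0.09) were lower in signal, and Egf itself was at 9.13, 8.67 and 8.50. Wnt3, Egf and Dll4 were highest on array 1 and lowest on array 3. Fzd5, the Wnt receptor required for Paneth maturation, ran the other way, at 9.08, 9.37 and 9.70.

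At the bottom of the list, Bst1, the ADP-ribosyl cyclase ectoenzyme, was at 8.49, 7.71 and 8.56, so array 2 was just under the reference level. Wnt11 (7.39 ± 0.07) and the bacterial sensor Nod2 (7.04 ± 0.13) lay under it on all 3 arrays. Across the wider list of Wnt, Notch and EGF ligands and receptors, 26 of 40 measured members were above the reference level, with a median of 8.47. The highest was the receptor Erbb3 (11.69 ± 0.25), followed by Wnt3, by Wls, which carries Wnt proteins to the cell surface (10.68 ± 0.16), and by the Wnt co-receptor Lrp5 (10.35 ± 0.07).

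Secretory transcription factors were mostly measured well above the floor. Of 30 measured members, 27 were above the reference level, and the median was 10.61. Atoh1, the factor that commits progenitors to the secretory lineages, was at 13.00, 12.72 and 12.41. Spdef, which acts in goblet and Paneth maturation, was at 12.50, 12.17 and 11.69, Sox9, required for Paneth cells, at 12.29, 12.07 and 11.70, and Bhlha15 (Mist1), a factor of professional secretory cells, at 12.31, 11.74 and 11.51. Each of these was highest on array 1 and lowest on array 3.

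The repressor Gfi1 (9.24 ± 0.38) and the zinc finger factor Mecom (10.82 ± 0.36) were lower in signal than these. The factors of the unfolded protein response family Creb3l4 (11.80 ± 0.31) and Creb3l1 (11.78 ± 0.38) and the forkhead factors Foxa3 (11.38 ± 0.44), Foxa1 (11.35, 10.86 and 10.78 by array) and Foxa2 (8.72 ± 0.33) were spread widely. Klf4, a factor of goblet and enterocyte differentiation, was at 10.28 ± 0.51.

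Factors shared by the intestinal epithelium were also high, with Hnf4a at 12.69 ± 0.09, Gata6 at 11.76 ± 0.03, Gata5 at 11.39 ± 0.14, Cdx2 at 10.92 ± 0.20, Hnf4g at 10.81 ± 0.40, Gata4 at 10.41 ± 0.10 and Cdx1 at 9.87 ± 0.08. The nuclear receptor Nr5a2 was the most variable of the 30, at 8.85, 10.04 and 10.60, and the bile acid receptor Nr1h4 was at 8.46 ± 0.32. Hes1, the Notch target that opposes Atoh1, was at 9.38 ± 0.32.

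The endocrine factors Insm1 (9.03 ± 0.49) and Neurod1 (8.78 ± 0.70) and the tuft factors Pou2f3 (8.90 ± 0.41) and Gfi1b (8.31 ± 0.18) were above the reference level. Neurog3, which commits endocrine progenitors, was at 7.70, 8.37 and 8.46 and so was under it on array 1. Pax4 (7.71 ± 0.03) and Pax6 (7.45 ± 0.22) were the remaining members not above it.

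The folding and secretion machinery of the endoplasmic reticulum was high in signal throughout. All 40 measured members were above the reference level, and their median was 12.12. The highest were protein disulfide isomerase P4hb (13.39 ± 0.14), the lectin chaperone Canx (13.13 ± 0.05), and the translocation genes Tram1 (13.13 ± 0.22) and Sec61a1 (13.13 ± 0.15). The lowest was Srp14, a subunit of the signal recognition particle, at 9.96 ± 0.14. In this list 6 genes were among the 100 highest and 24 among the 500 highest.

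Promoters of this list were searched for the endoplasmic reticulum stress response element, the letters CCAAT and CCACG with 9 bases between them, within 250 bases before the start on both strands. Of 40 measured members, 30 had a promoter in the table, and 7 of these (23.3%) held the element. This stands beside 20 of 15614 measured genes with a promoter, which include the 7. The list was drawn up for the organelle whose stress response names the element. A high share was therefore likely beforehand, and it is not a test. The 7 were Canx, Calr, Hspa5, Hsp90b1, Dnajc3, Pdia6 and Creld2, which are chaperones, disulfide isomerases and co-chaperones. The 4 whose element lay in the last 120 bases are printed to show its place, with CCAAT and CCACG, or their complements CGTGG and ATTGG, in capitals. Capitals here mark this element alone.
Hspa5, chr2:34771970-34772089, plus strand: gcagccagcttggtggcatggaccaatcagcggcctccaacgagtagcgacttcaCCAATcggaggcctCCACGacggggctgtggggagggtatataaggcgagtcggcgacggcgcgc
Hsp90b1, chr10:86705445-86705564, minus strand: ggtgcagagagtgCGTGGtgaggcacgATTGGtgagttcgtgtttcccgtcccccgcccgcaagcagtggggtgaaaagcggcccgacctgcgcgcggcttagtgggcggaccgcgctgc
Dnajc3, chr14:118937812-118937931, plus strand: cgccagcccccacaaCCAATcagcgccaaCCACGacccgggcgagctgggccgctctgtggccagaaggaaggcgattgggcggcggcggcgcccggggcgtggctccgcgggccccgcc
Pdia6, chr12:17266469-17266588, plus strand: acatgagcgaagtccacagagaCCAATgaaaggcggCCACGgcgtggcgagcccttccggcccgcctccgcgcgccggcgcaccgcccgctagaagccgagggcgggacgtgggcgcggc
The element began 65, 107, 105 and 98 bases before the start in Hspa5, Hsp90b1, Dnajc3 and Pdia6. Hspa5 (BiP), the main chaperone of the endoplasmic reticulum, was at 13.13, 12.89 and 12.96. Hsp90b1 (Grp94) was at 12.61, 12.29 and 12.41, Dnajc3, a co-chaperone of BiP, at 12.49, 11.94 and 11.89, and the isomerase Pdia6 at 11.79, 11.37 and 11.32. The 4 genes were highest on array 1, as were the other 36 measured members of the list.

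Markers of other epithelial lineages were measured in the same RNA. Bulk RNA does not show which of the sorted cells a transcript came from, and fewer cells of a type and less RNA per cell cannot be told apart. All 17 measured goblet markers were above the reference level, with a median of 11.80, and 7 were among the 100 highest genes. Enterocyte markers had a median of 10.68, with 29 of 30 above. Crypt stem cell markers had a median of 10.95, with all 16 above. Markers of dividing cells had a median of 9.80, with 25 of 28 above, and enteroendocrine (8.89, 19 of 25 above) and tuft markers (8.90, 13 of 17 above) were lower.

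The highest members of the goblet list were secreted or membrane products. The protein disulfide isomerase family member Agr2 was at 13.55 ± 0.10, guanylin (Guca2a) at 13.39 ± 0.02 and the mucin Muc13 at 13.26 ± 0.12, after Spink4, Muc2, Tff3 and Clca1. Agr2, Guca2a, Muc13 and Zg16 were named after their values were seen. Zg16, a lectin of mucus and of zymogen granules, was at 10.99, 12.23 and 12.79, and Retnlb, a bactericidal resistin-like protein, at 11.26, 9.31 and 9.36. The spread of these 2 products ran in opposite directions, with Zg16 lowest and Retnlb highest on array 1.

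The enteroendocrine list held a few bright granins and hormones above many lower members. Chromogranin A (Chga) was at 13.11, 12.36 and 12.43, the incretin gene Gip at 13.14, 12.32 and 11.69, somatostatin (Sst) at 12.49, 12.20 and 11.85 and chromogranin B (Chgb) at 12.60, 11.94 and 11.81. The 4 genes were highest on array 1, and their ranks lay between 176 and 403. Other hormone genes of the list, named after their values were seen, were lower, with ghrelin (Ghrl) at 9.91 ± 0.66, cholecystokinin (Cck) at 9.73 ± 0.08, secretin (Sct) at 9.44 ± 0.61 and Pyy at 8.89 ± 0.06. Neurotensin (Nts, 6.01 ± 0.24) was under the reference level on each array. No enteroendocrine marker was among the 100 highest genes.

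In the tuft list, Rgs13, a regulator of G-protein signalling, was the highest at 10.82, 10.89 and 10.42. The kinase Dclk1 (9.92 ± 0.37), the leukotriene pathway protein Alox5ap (9.57 ± 0.39) and the adaptor Sh2d6 (9.40 ± 0.35) followed, and no tuft marker was among the 500 highest genes. In the enterocyte list, Lypd8 (13.82 ± 0.05) and the aminopeptidase Anpep (13.15 ± 0.17) were highest, followed by the apolipoprotein Apoa1 (12.48, 11.72 and 12.34) and the fatty acid-binding protein Fabp2 (12.40, 11.76 and 12.22). Apoa1 and Fabp2 were lowest on array 2.

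In the stem list, the highest were Olfm4, a secreted glycoprotein (13.52 ± 0.23), the ion cotransporter Slc12a2 (12.78 ± 0.22), the co-receptor Rgmb (11.79 ± 0.17) and the Myc target Cdca7 (11.68 ± 0.59). The R-spondin receptor Lgr5, the marker of crypt base stem cells, was at 10.41, 11.35 and 11.28. In the list of dividing cells, the replication clamp Pcna was at 11.69, 11.74 and 12.10, the cyclins Ccnb2 at 10.47, 11.64 and 11.79 and Ccna2 at 10.46, 11.31 and 11.70, and Mki67 at 10.10, 11.27 and 11.55. Lgr5 and these 4 genes were lowest on array 1.

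Genes of the intestinal epithelium in general were at a median of 12.29, with all 22 above the reference level and a median SD of 0.10. Krt8 (13.58 ± 0.05), the immunoglobulin transporter Pigr (13.38 ± 0.05), the galectin Lgals4 (13.23 ± 0.14) and keratin 18 (Krt18, 13.09 ± 0.09) were the highest. Markers of the proximal small intestine (6 of 8 above, median 10.04) and of ileum and colon (5 of 7 above, median 8.89) both had members above the reference level. The highest members were the ferric reductase Cybrd1 of the proximal list (11.82, 11.04 and 10.78) and the carbonic anhydrase Car4 of the distal list (12.03, 11.57 and 11.93). Pdx1 (7.43) and Slc40a1 (7.12) of the proximal list and Slc10a2 (6.51) and Car1 (6.44) of the distal list were under the reference level on each array. Fabp1, Lct and Slc2a2 of the proximal list are also on the enterocyte list, and Pyy of the distal list is also on the enteroendocrine list.

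Markers of cells outside the epithelium were at the level of the other-organ genes, whose median was 6.51. The medians were 6.54 for T cells (0 of 16 above the reference level on all arrays), 6.49 for B and plasma cells (2 of 11), 6.63 for myeloid cells (1 of 17), 6.88 for fibroblasts, muscle and endothelium (2 of 17), 6.85 for enteric neurons and glia (1 of 9) and 6.83 for red blood cells (0 of 2). The defining markers Ptprc (CD45), Cd3e, Cd79a, Csf1r and Pecam1 were at 6.98, 7.62, 5.12, 6.28 and 6.85, and they were named after their values were seen. Among the members above the reference level on all arrays were Derl3, a factor of protein degradation at the endoplasmic reticulum (9.57 ± 0.25), and the coactivator Pou2af1 (8.10 ± 0.23). The rest were Lyz2, the intermediate filament Vim (10.48 ± 0.18), the collagen Col1a1 (8.01 ± 0.08) and the receptor Ret (8.17 ± 0.27). Ccl5, the highest T-cell marker, was at 8.17, 7.71 and 8.26, and Gfra1 of the neural list was at 8.07, 7.70 and 7.46. The means of Ccl5 and Gfra1 were above the reference level, but not every array was.

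Pancreatic acinar genes split in the same way. The pancreatic-type genes Clps (rank 3) and Pnliprp2 (rank 9) were placed on the granule list and are not counted here. The median of 17 measured members was 6.71, and 3 were above the reference level. The lipase-related gene Pnliprp1 was at 12.89, 12.10 and 11.46, Zg16 is also a goblet gene, and syncollin (Sycn), a zymogen granule protein, was at 11.17, 10.71 and 10.28. The proteases among the members, such as Cela1 (7.69 ± 0.07), were not above the reference level on all arrays.

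The 3 arrays were not equally alike. The correlation of array 2 with array 3 across all clusters was 0.993, and those of array 1 with arrays 2 and 3 were 0.974 and 0.975. Genes are not independent replicates, so these are descriptions of array pairs. Of the 9628 genes above the reference level, 20 (0.21%) were at least 1 log2 unit apart between arrays 2 and 3, compared with 187 (1.94%) between arrays 1 and 2 and 272 (2.83%) between arrays 1 and 3. The labels give no cause for the distance of array 1.

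The typical gene varied little. The median SD over arrays was 0.15 for the 9628 genes, and 2798 (29.1%) had an SD below 0.1. The 90th percentile of SD was 0.37, and 322 genes (3.34%) spanned at least 1 log2 unit. Without array 1 that count was 20. The median SD was 0.15 to 0.16 in each band of level between the reference level and 13, and 0.09 for the 97 genes above 13.

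The lists differed in spread. The median SD of members above the reference level was 0.08 for granule products, 0.10 for the general epithelium, 0.22 for secretion machinery, 0.30 for Paneth identity genes, 0.41 for enterocyte, 0.42 for enteroendocrine, 0.69 for dividing-cell and 0.73 for MHC class II genes. Of the 17 granule products above the reference level, 11 were among the 100 highest genes, whose median SD was 0.09. Another 3 (Mptx1, Reg3b and Ang6) spanned at least 1 log2 unit. The genes with the lowest SD were Btbd19, Tbc1d23, B4galnt3, the translation initiation subunit Eif3b and the repressor Nkrf, each with a range under 0.01 units.

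**Figure D3:**
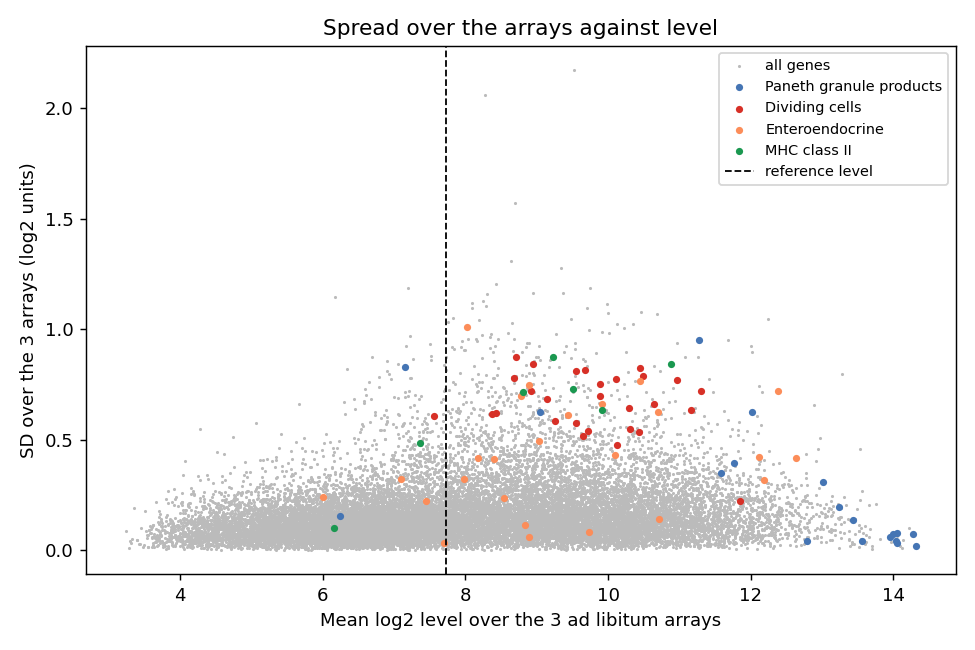
SD over the 3 ad libitum arrays (vertical axis, log2 units) against mean log2 level (horizontal axis) for 19938 genes in grey, with 4 lists in colour and the reference level dashed. Most granule products lie at the right with a small SD, apart from members such as Reg3b (SD 0.95), and the dividing-cell genes lie above most genes of their level, with a median SD of 0.69 for those above the reference level.

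Array 1 was the farthest from the other 2 for 5584 of the 9628 genes (58.0%) and for 281 of the 322 genes that spanned at least 1 unit (87.3%). It was at least 1 unit above the mean of arrays 2 and 3 for 55 genes and below it for 146. This split was 98 and 106 when each array was centred on its median, which moved the median difference of all genes from 0.04 to 0.18. List differences are therefore read against that shift.

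On array 1, several differentiated-cell lists were higher, and the dividing-cell, MHC class II and stem lists were lower. Of all 9628 genes above the reference level, 4479 were highest and 3613 lowest on array 1, and the counts that follow stand beside these. All 40 genes of the secretion machinery were highest there, with a median difference from the mean of the other arrays of 0.36, and 15 of 18 Paneth identity genes were (0.40). The median difference was 0.34 for goblet genes and 0.72 for enteroendocrine genes, of which 17 of 19 were highest on array 1 and 7 were above the mean of the others by at least 1 unit. Without array 3, the value was 0.24 for Paneth identity genes and 0.22 for goblet genes. Enterocyte genes had a median difference of 0.30, with 16 of 29 highest on array 1, which was 0.03 without array 2 and 0.60 without array 3. Tuft genes, another secretory lineage, were at 0.09, with 1 of 13 highest there, and turned to -0.23 without array 3. All 25 dividing-cell genes above the reference level were lowest on array 1, with a median difference of -1.14, and 17 of them by at least 1 unit. All 5 MHC class II genes above the reference level were also lowest there (-1.08, and -0.51 without array 2). Stem cell markers had a median difference of -0.39, which was -0.24 after median centring. The directions of these medians were kept under median centring and quantile normalization.

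Small nucleolar RNA, histone and ribosomal protein genes were also mostly lower on array 1. All 25 small nucleolar RNA genes above the reference level were lowest on array 1, with a median difference of -1.41, and 19 of them by at least 1 unit. Histone genes had a median difference of -0.50 and ribosomal protein genes of -0.27, with 51 of 59 lowest on array 1. After median centring, the ribosomal value was -0.12, with 39 of 59 lowest. These 3 directions were also kept under both scalings, and the 3 lists were drawn up after the values were seen. The median for granule products was 0.11 (0.26 after median centring), and that for the general epithelium was -0.06, which turned positive (0.08) after median centring.

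Other lists separated arrays 2 and 3. Of the 9628 genes, 2674 were highest and 2060 lowest on array 2, and 2475 were highest and 3955 lowest on array 3. On array 2, all 5 MHC class II genes above the reference level were highest, with a median difference of 1.19, and since array 1 was lowest for the same genes, the list separated both arrays. Cd74, the invariant chain, was at 10.04, 11.73 and 10.89. The other named members were H2-Ab1 (9.37, 10.61 and 9.76), H2-Eb1 (8.85, 10.30 and 9.37) and H2-Aa (8.50, 10.20 and 8.99), which encode chains of the class II molecules. On the same array 12 of 13 tuft genes were highest (median difference 0.51) and 28 of 29 enterocyte genes lowest (-0.64), although the tuft count was 7 after median centring and 9 after quantile normalization. On array 3, all 25 dividing-cell genes were highest and all 13 tuft genes lowest. Also lowest there were 16 of 18 Paneth identity genes (median difference -0.38), with 1 highest. Of 27 secretory transcription factors, 19 were lowest on array 3 (-0.32) and 4 highest. These 2 lists share 7 measured genes. The directions of these medians were kept under both scalings.

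**Figure D4:**
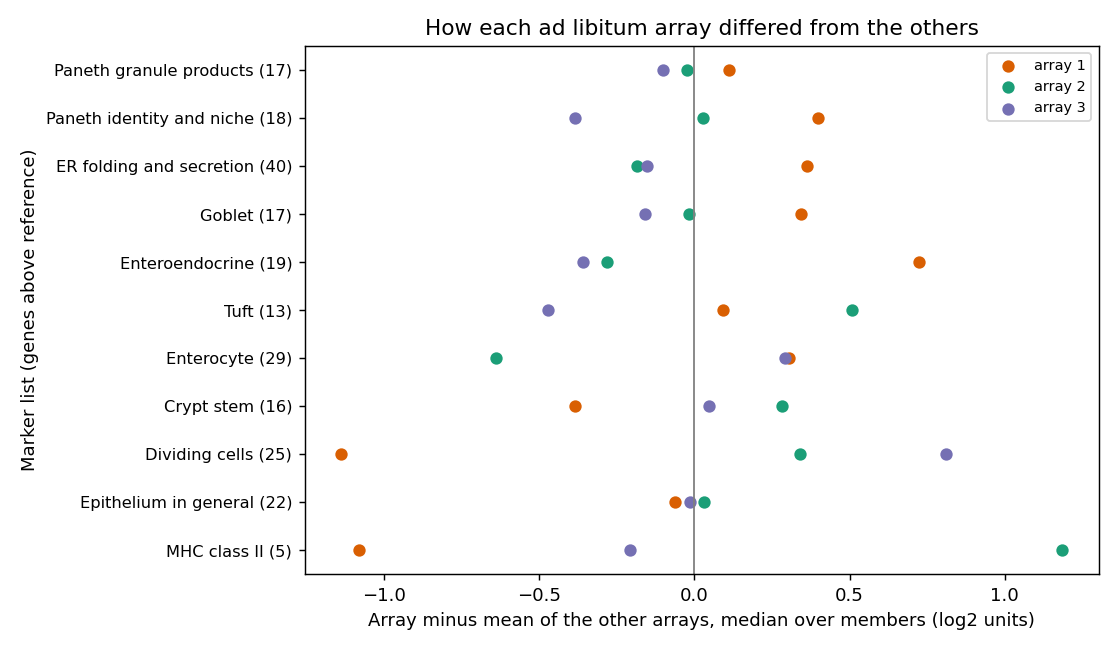
Difference of each ad libitum array from the mean of the other 2 (horizontal axis, log2 units), as the median over the members of each list above the reference level (vertical axis, with their number). Each coloured point is an array. Array 1 lies at -1.14 for dividing cells and 0.72 for enteroendocrine genes, and array 2 at 1.19 for MHC class II genes.

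The genes with the largest spread were set apart by array 1. Gpx3, a secreted glutathione peroxidase, was at 10.79, 8.86 and 8.39. The malic enzyme gene Me1 was at 11.12, 9.02 and 9.11, and the plasma glycoprotein gene Apoh at 10.24, 8.62 and 7.98. Array 1 was the highest of the 3 for these genes, for Retnlb, for alpha-fetoprotein Afp (11.22, 9.50 and 9.26) and for the incretin receptor Glp1r (9.82, 8.26 and 7.88).

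The other 6 of the 12 were lowest on array 1. They were the small nucleolar RNA genes Snord15b (8.44, 10.43 and 10.23), Snora23, Snord35a, Snord49b and Snord47, and a cluster named for the microRNA gene Mir505 (8.02, 10.00 and 10.07), which does not measure a mature arm. Snord49b was the brightest of the 12, at 11.04, 12.89 and 12.81.

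**Figure D5:**
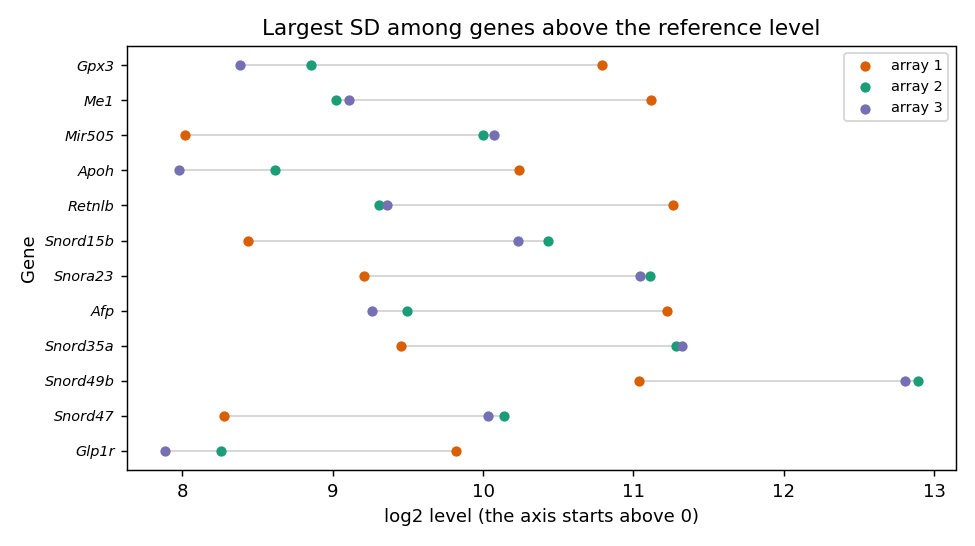
The log2 level on each ad libitum array (horizontal axis, which starts above 0) of the 12 genes with the largest SD among those above the reference level on all arrays (vertical axis, in order of SD). Coloured points are single arrays. Array 1 is the highest for 6 genes, such as Gpx3 at 10.79, and the lowest for the other 6, such as Mir505 at 8.02.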

How the data were processed

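Total RNA of sorted Paneth cells was measured on 7 Affymetrix arrays, 1 per sample. Per the submitters' processing notes, the authors used Affymetrix Expression Console to make the deposited log2 values, 1 per transcript cluster. Its version, algorithm and normalization were not stated in the labels or the files used here, and the log2 scale was inferred from the range of 3.03 to 14.66. Values were used without further scaling. Of 35556 clusters, 21789 had 1 symbol in the platform annotation, 1621 several and 12146 none. RefSeq gene identifiers (GRCm38.p6) changed 0 symbols. For 999 genes with several clusters, the brightest was used.

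Means, SDs, ranks, list counts and medians were computed with Python (version 3.11.15) and pandas (version 2.3.3). The SDs and the call of genes at least 1 unit off on array 1 were checked on simulated data. Ranks, list counts and list medians were not checked in this way. No test was made, since the ad libitum arrays are 1 group. Named genes were the 6 Paneth markers, the 30 highest means, the 4 highest members of each list, the 12 largest and 5 smallest SDs among genes above the reference level, the secretory transcription factor and Paneth identity lists, and the 3 lowest granule genes. Others named are list members or examples chosen after their values were seen. The members and lists were chosen with earlier results of these data known. Promoters came from RefSeq and were found for 15614 of 19938 genes. The number of arrays limits the precision.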

Additional observations from a re-analysis of the deposited data

How the results depend on the processing

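No paired analysis was possible because 1 group was described and no groups were compared. Median centring, quantile normalization, the mean of all clusters of a gene and the brightest cluster over all 7 arrays kept 30, 29, 28 and 30 of the 30 highest genes, and leaving out 1 array kept 26 to 29. The count of genes above the reference level, 9628, was 14086 with the median and 7996 with the maximum of the other-organ genes as the reference, 10191 by the mean, and 9678 to 10046 without 1 array. The granule list's median, 13.24, was 13.44 over members above the reference level and 13.14 to 13.34 without 1 array. The count of genes spanning at least 1 unit, 322, was 530 over all genes and 20 to 273 without 1 array, the lowest without array 1. The count of genes for which array 1 was at least 1 unit from the mean of the others, 201, was 340 over all genes and 192 to 273 without 1 other array. Of 174 values for the other list medians, 156 moved by less than the spread between arrays and 18 by more. Without array 3, array 1's median difference turned to -0.23 for tuft genes and to -0.03 for Wnt, Notch and EGF genes, and was 0.24 for Paneth identity genes and 0.22 for goblet genes. The cause of these changes beyond fewer arrays or more genes was not tested.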

Other observations

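Clusters without a single symbol held much of the brightest signal. Of the 100 brightest clusters of the arrays, 32 had 1 symbol, 23 had several and 45 had none in the platform annotation. Of the 12146 unnamed clusters, 3186 were above the reference level, and the brightest was at 14.43 ± 0.01.

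Several further genes that separated the arrays belong to no list and were chosen after their values were seen. The beta-defensin gene Defb1 was at 13.03, 11.69 and 11.32, so array 1 was 1.52 log2 units above the mean of the others. The regenerating-family gene Reg1 was at 10.16, 9.43 and 11.45, highest on array 3 like Reg3b and Reg3g. Chac1, a glutathione-degrading enzyme of the integrated stress response, was at 8.59, 8.15 and 9.94. The RNA component of the RNase MRP complex, Rmrp, was at 10.58, 12.18 and 12.27. The ion channel gene Trpa1, found in enterochromaffin cells, was at 10.02, 8.72 and 8.38.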
